A study of Homo sapiens with 18 samples.

Results

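The RNA of the cell lines OCI-Ly1 and TMD8 was compared with no active drug present. Both lines come from human diffuse large B-cell lymphoma, a cancer of mature B lymphocytes, and each had been given 0.01% DMSO, the vehicle of the demethylase inhibitor JIB-04. The comparison used 6 of the 18 libraries of the series, 3 of OCI-Ly1 and 3 of TMD8. The count tables of the lines were joined by gene symbol, and all 23686 symbols were present in both. OCI-Ly1 had been grown in IMDM and TMD8 in RPMI 1640, each with 10% FBS and Pen-Strep, so line and medium cannot be told apart in any value below. The labels call the 3 libraries of a group technical triplicates, and p-values then measure only the spread between such libraries. The other 12 libraries, from cells given 150 nM or 500 nM JIB-04, served only to look at the same line difference again.

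Diffuse large B-cell lymphomas are commonly divided by the normal B-cell stage that their RNA resembles. The germinal-centre type keeps genes of the germinal centre, where B cells divide under the repressor BCL6 and mutate their antibody genes. The activated-B-cell type carries genes of B cells on the way to plasma cells, such as IRF4, and is known for constant activity of NF-kB, a family of transcription factors that is switched on by the B-cell receptor and by Toll-like receptors. OCI-Ly1 is widely used as a germinal-centre-type line and TMD8 as an activated-B-cell-type line.

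The 6 libraries held between 16790982 and 25545170 estimated counts, and values are given as TMM-normalised counts per 1000000 counts (CPM). All 10 B-cell markers examined, among them MS4A1, CD79A and PAX5, averaged 5 CPM or more in both lines. Summed over the 9 T-cell markers the level was between 23.7 and 26.2 CPM in OCI-Ly1 and between 36.6 and 38.4 CPM in TMD8, and over the 9 myeloid markers between 4.55 and 5.30 CPM and between 25.4 and 28.5 CPM. The T-cell receptor genes CD3E, CD3D and CD3G were at 0.393 and 0 CPM, 4.91 and 0.0168 CPM and 12.8 and 2.02 CPM in OCI-Ly1 and TMD8, and CD5, which some B cells also carry, at 0.727 and 34.03 CPM. The myeloid genes S100A8, S100A9 and MPO were at 0 counts in both lines, and CD68 was at 2.82 and 24.9 CPM. Of 6 NK-cell markers only KLRD1 reached 5 CPM, in both lines, and the 10 stromal, endothelial and epithelial markers summed to between 31.4 and 37.1 CPM in OCI-Ly1 and between 90.1 and 96.01 CPM in TMD8. The part of these markers in the results was not tested. In bulk RNA, fewer cells that express a gene and less RNA per cell cannot be told apart.

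Of 15571 genes with enough counts to test, 5940 were higher in OCI-Ly1 and 6002 were higher in TMD8 at an adjusted p under 0.05 by edgeR's quasi-likelihood test, which is 38.1% and 38.5% of the genes tested and 76.7% in all. With a difference of at least 1 on the log2 scale as a further condition, 2605 genes (16.7%) were higher in OCI-Ly1 and 3406 (21.9%) in TMD8. The libraries of the lines did not overlap for 78.3% of the tested genes. With so much of the transcriptome differing, a gene list is read here against these shares. The median log2 difference, OCI-Ly1 minus TMD8, was -0.01 over all genes tested. This sign is used throughout: positive values are higher in OCI-Ly1. Differences are relative to the other genes of a library. With the deposited TPM values and no centring, on the log2(TPM + 1) scale, 10814 genes were higher in OCI-Ly1 and 2702 in TMD8, and the median over all genes moved to 0.687. Among 165 genes checked singly on that scale, FOXP1, NFKB1, MYC and KDM4C turned to lie higher in OCI-Ly1. Other genes given below were not checked singly, so small differences toward TMD8 may depend on the scaling. Lists whose medians also lay higher in OCI-Ly1 were B-cell receptor signalling, Toll-like receptors, B-cell transcription factors, surface antigens and the BCL2 family. JmjC demethylases, Polycomb, interferon and sterol genes were the others. These 9 medians were below 0 in CPM, and below 0 again once the TPM values were centred. The lists for MHC class I, H3K9 methylation and ribosome biogenesis, with medians of -0.15, -0.05 and -0.01 in CPM, also turned, to 0.79, 0.89 and 0.85, and stayed above 0 when centred, at 0.03, 0.12 and 0.08, so these 3 have no direction that holds across scalings.

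**Figure D1:**
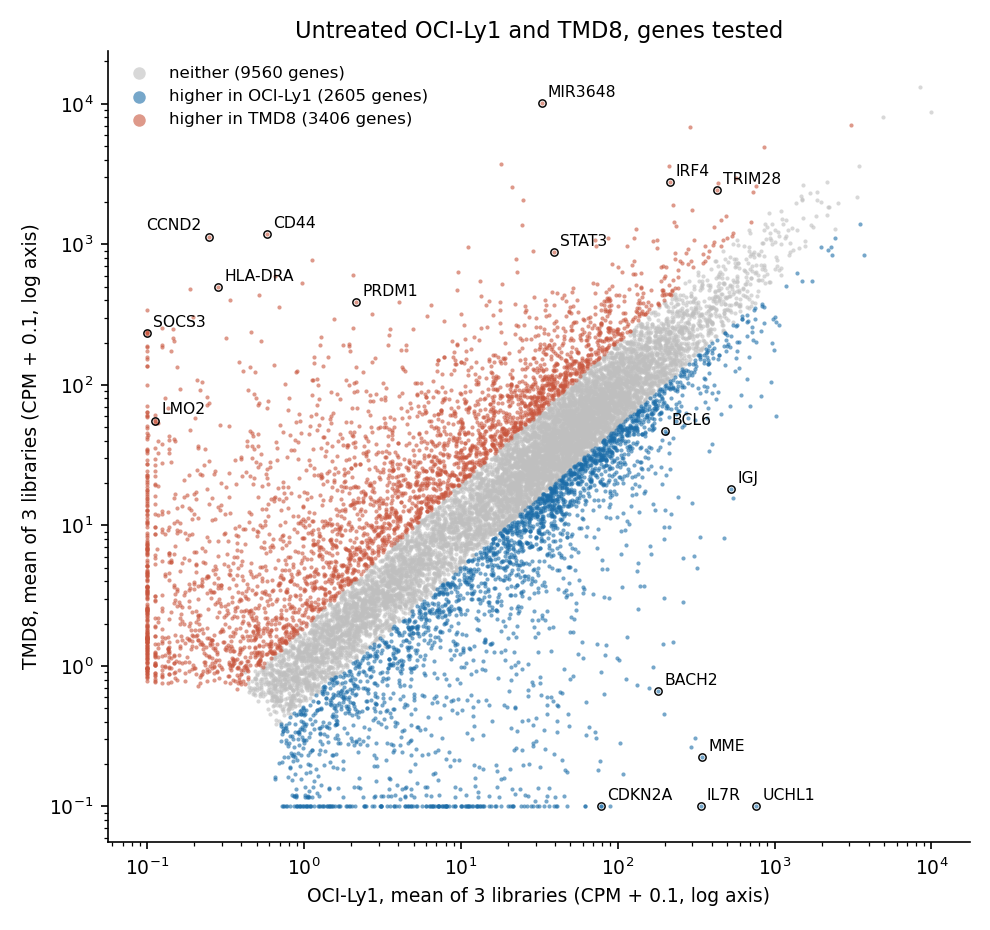
Mean level of each tested gene in the 3 OCI-Ly1 libraries (x axis) and the 3 TMD8 libraries (y axis), in CPM plus 0.1 on log axes. Blue points are the 2605 genes called at least a log2 difference of 1 higher in OCI-Ly1, red points the 3406 called higher in TMD8, and the points along the left and bottom edges are genes at or near 0 counts in 1 of the lines.

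Germinal-centre genes were mostly higher in OCI-Ly1, with a group of exceptions. Of 25 genes listed for this type, 24 could be tested. Of these, 16 were higher in OCI-Ly1, 13 of them by at least 1 on the log2 scale, while 5 were higher in TMD8, all by at least 1, and 3 did not pass the test. The list's median log2 difference was 1.19. BCL6, the repressor that holds B cells in the germinal centre programme, was at 206, 194 and 199.5 CPM in the 3 OCI-Ly1 libraries and 51.1, 44.2 and 45.2 CPM in the 3 TMD8 libraries. It was 4.27-fold higher in OCI-Ly1, a log2 difference of 2.10 ± 0.07 (SE; adjusted p = 1.2e-15). MME, which encodes the surface peptidase CD10 used to recognise germinal-centre lymphomas in the clinic, was at 338, 349 and 354 CPM in the 3 OCI-Ly1 libraries and 0.0649, 0.0564 and 0.253 CPM in the 3 TMD8 libraries. With 25012 counts over the 3 OCI-Ly1 libraries and 7 over the 3 TMD8 libraries, MME was 2623-fold higher in OCI-Ly1 (95% counting interval 1273 to 6524). For both genes every OCI-Ly1 library was above every TMD8 library, and 78.3% of all genes tested had no overlap in one direction or the other.

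Among the other members, STAP1, an adaptor expressed in germinal-centre B cells, was at 78.6 ± 5.67 CPM in OCI-Ly1 and 0.805 ± 0.213 CPM in TMD8 (SD, n = 3 for every such value here), a log2 difference of 6.62 ± 0.14. GCSAM, a signalling adaptor of germinal-centre B cells, was at 99.2 ± 2.19 CPM in OCI-Ly1 and 1.04 ± 0.217 CPM in TMD8. The transcription factor MYBL1 was 8.72-fold higher in OCI-Ly1, and S1PR2, the receptor that keeps B cells inside the germinal centre, was 2.53-fold higher in OCI-Ly1. ITPKB, an inositol kinase, differed less, at 50.7 ± 5.29 CPM in OCI-Ly1 and 29.8 ± 0.636 CPM in TMD8, a log2 difference of 0.77 ± 0.08. MAML3 was low in both lines, at 0.715 and 0.0881 CPM in OCI-Ly1 and TMD8, with 53 counts over the 3 OCI-Ly1 libraries and 5 over the 3 TMD8 libraries. ASB13 was too low to test, at 0.192 and 0.256 CPM. The 3 members that did not pass were GNA13, at 199 and 193 CPM, BCL7A, at 146 and 134 CPM, and RGS13, at 121 and 109 CPM.

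The 5 germinal-centre genes on the other side include markers that are used to define the type. LMO2, a transcriptional co-factor of germinal-centre B cells, was at 0.037, 0 and 0 CPM in the 3 OCI-Ly1 libraries and 56.7, 56.001 and 54.3 CPM in the 3 TMD8 libraries. It had 1 count over the 3 OCI-Ly1 libraries and 2942 over the 3 TMD8 libraries, and was 4008-fold higher in TMD8 (95% counting interval 719 to 158366). SERPINA9, a protease inhibitor of germinal-centre B cells, was at 0.124 ± 0.132 CPM in OCI-Ly1 and 22.7 ± 1.26 CPM in TMD8, with 10 counts over the 3 OCI-Ly1 libraries and 1198 over the 3 TMD8 libraries. MEF2B, a transcription factor that acts on BCL6, was 6.97-fold higher in TMD8 and the kinase NEK6 was 7.21-fold higher in TMD8. None of the 5 had overlapping libraries, and neither did 78.3% of all genes tested. So OCI-Ly1 held the higher RNA of BCL6, MME and MYBL1 and TMD8 that of LMO2, SERPINA9 and MEF2B.

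The activated-B-cell list lay almost wholly on the TMD8 side. All 27 genes of the list that the tables hold could be tested: 25 were higher in TMD8, 22 of them by at least 1 on the log2 scale, 1 was higher in OCI-Ly1 and 1 did not pass. The median log2 difference was -2.50. IRF4, the transcription factor that drives activated B cells toward plasma cells and a marker of this lymphoma type, was at 228, 213 and 202 CPM in the 3 OCI-Ly1 libraries and 2965, 2670.3 and 2658 CPM in the 3 TMD8 libraries. It was 12.9-fold higher in TMD8, a log2 difference of -3.69 ± 0.08 (adjusted p = 2.7e-18). PRDM1, which encodes the plasma-cell regulator BLIMP1, was at 1.37, 2.77 and 2.02 CPM in the 3 OCI-Ly1 libraries and 411, 373 and 374 CPM in the 3 TMD8 libraries, and was 194-fold higher in TMD8. The AP-1 family factor BATF was at 2.76 ± 0.898 CPM in OCI-Ly1 and 156 ± 2.29 CPM in TMD8. The libraries of the lines were far apart for all of these, although OCI-Ly1 was not without IRF4.

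The widest gaps of the list were those of CCND2, CD44 and CREB3L2. CCND2, a cyclin that drives entry into the cell cycle, was at 0.148, 0.217 and 0.0749 CPM in the 3 OCI-Ly1 libraries and 1175, 1115 and 1119 CPM in the 3 TMD8 libraries, which is 10 counts over the 3 OCI-Ly1 libraries and 60038 over the 3 TMD8 libraries, and was 8179.5-fold higher in TMD8 (95% counting interval 4447 to 17058). CD44, a receptor for the matrix sugar hyaluronan, was at 0.346, 0.598 and 0.496 CPM in the 3 OCI-Ly1 libraries and 1273, 1131 and 1136 CPM in the 3 TMD8 libraries, and was 2542-fold higher in TMD8. CREB3L2, a membrane-bound transcription factor, was at 0.351 ± 0.212 CPM in OCI-Ly1 and 133 ± 6.66 CPM in TMD8. The more graded members included SPIB, an Ets factor, 12.8-fold higher in TMD8, the kinase PIM2, 4.85-fold higher in TMD8, the ectoenzyme ENTPD1 (CD39), 4.47-fold higher in TMD8, the receptor TNFRSF13B (TACI), 5.67-fold higher in TMD8, CYB5R2, 3.69-fold higher in TMD8, and FOXP1, a forkhead repressor, 1.86-fold higher in TMD8. The 1 gene on the OCI-Ly1 side was BCL2, the survival protein, at 531 ± 7.56 CPM in OCI-Ly1 and 224 ± 2.49 CPM in TMD8. IL16 did not pass, at 78.8 and 84.5 CPM.

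**Figure D2:**
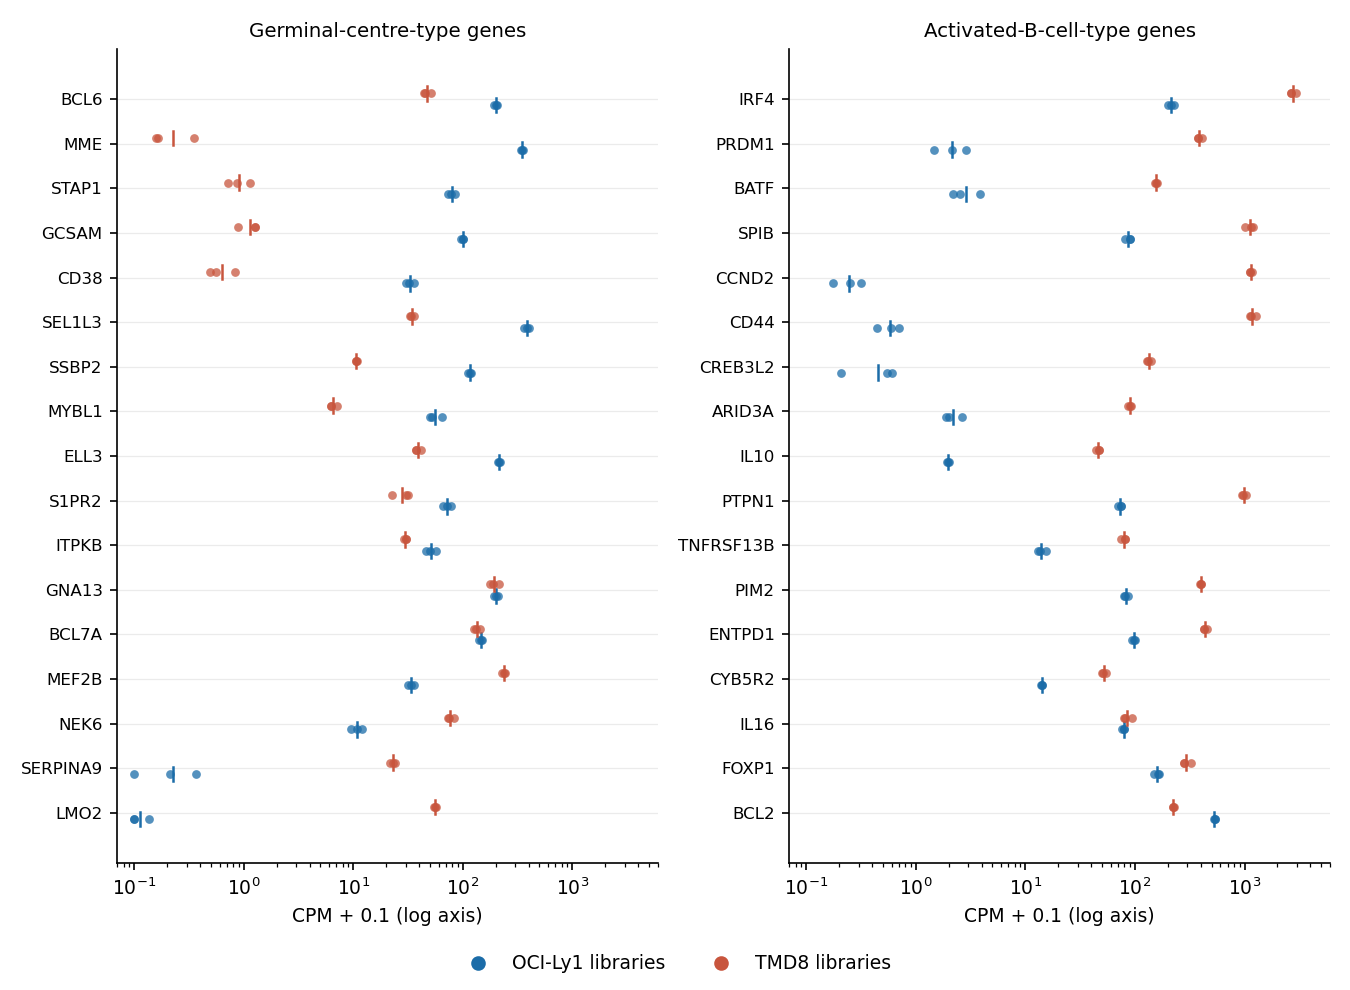
Level of 17 germinal-centre-type genes (left) and 17 activated-B-cell-type genes (right) in each library, in CPM plus 0.1 on a log axis, with a bar at each mean. Blue points are the 3 OCI-Ly1 libraries and red points the 3 TMD8 libraries; BCL6 and MME lie higher in OCI-Ly1, LMO2 and SERPINA9 higher in TMD8, and on the right all genes shown except BCL2 and IL16 lie higher in TMD8.

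NF-kB reaches DNA as dimers of 5 subunits, is held in the cytoplasm by inhibitors that are themselves its target genes, and is released when those are degraded. The promoters of several of these feedback genes carry its binding motif close to the start of transcription. Among 27305 promoters of 300 bases in RefSeq (250 before and 50 after the start), 5.72% hold a match to the NF-kB site, searched by that name on both strands. Of the 22 subunit and regulator genes of the list with a promoter in that table, 7 (31.8%) hold one: NFKB1, REL, NFKBIA, NFKBIZ, BCL3, TNFAIP3 and TRAF3. In the other gene lists the share ranged from 0% to 37.5%, the highest being that of the MHC class I list. A match is a description of the letters only. Windows around the matches are shown for 6 genes whose RNA is described next, because 5 were higher in TMD8 and REL was not. They are from RefSeq on GRCh38.p14, 5′ to 3′ on the gene's strand and before the start, with the matched bases in capitals.
NFKB1, chr4:102501290-102501339, plus strand: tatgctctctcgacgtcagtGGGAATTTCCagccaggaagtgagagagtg
NFKBIA, chr14:35404801-35404850, minus strand: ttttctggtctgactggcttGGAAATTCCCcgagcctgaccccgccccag
NFKBIZ, chr3:101827747-101827796, plus strand: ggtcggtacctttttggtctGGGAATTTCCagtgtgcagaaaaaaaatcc
TNFAIP3, chr6:137867172-137867233, plus strand: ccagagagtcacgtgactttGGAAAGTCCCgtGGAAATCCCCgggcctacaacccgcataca
TRAF3, chr14:102777396-102777445, plus strand: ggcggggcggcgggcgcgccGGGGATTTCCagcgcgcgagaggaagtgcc
REL, chr2:60881507-60881557, plus strand: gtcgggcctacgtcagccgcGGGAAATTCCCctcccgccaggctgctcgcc

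Among the 5 subunit genes, 4 were higher in TMD8 and 1 in OCI-Ly1. NFKB2, which gives the p52 subunit of the alternative pathway, was at 17.5, 16.8 and 13.5 CPM in the 3 OCI-Ly1 libraries and 102, 103 and 103 CPM in the 3 TMD8 libraries, and was 6.45-fold higher in TMD8. RELA was 2.29-fold higher in TMD8, RELB was 2.16-fold higher in TMD8 and NFKB1, the p50 precursor, was 1.82-fold higher in TMD8, at 98.3 ± 2.64 CPM in OCI-Ly1 and 179 ± 9.67 CPM in TMD8. REL, the c-Rel subunit, was at 96.5, 100.4 and 106 CPM in the 3 OCI-Ly1 libraries and 65.02, 64.6 and 67.3 CPM in the 3 TMD8 libraries, and was 1.54-fold higher in OCI-Ly1 (log2 difference 0.62 ± 0.06, adjusted p = 3.6e-08). REL was thus the one subunit gene with the higher level in OCI-Ly1.

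Most inhibitors and feedback genes were higher in TMD8. TNFAIP3 (A20), an enzyme that ends NF-kB signalling, was at 11.8, 11.8 and 10.98 CPM in the 3 OCI-Ly1 libraries and 191, 171 and 175 CPM in the 3 TMD8 libraries, and was 15.5-fold higher in TMD8. NFKBIA, the main cytoplasmic inhibitor, was at 53.8 ± 2.09 CPM in OCI-Ly1 and 148 ± 9.12 CPM in TMD8, a log2 difference of -1.46 ± 0.07. The nuclear co-regulators BCL3 and NFKBIZ were 104-fold higher in TMD8 and 5.72-fold higher in TMD8. In the alternative pathway both the activating kinase MAP3K14 (NIK), 10.7-fold higher in TMD8, and TRAF3, which has that kinase degraded, 10.5-fold higher in TMD8, were higher in TMD8, while BIRC2 (cIAP1), which works with TRAF3, was 2.65-fold higher in OCI-Ly1. CYLD, a deubiquitinase that restrains the pathway, was at 77.3 ± 3.68 CPM in OCI-Ly1 and 51.9 ± 3.58 CPM in TMD8. Of the 25 genes, 18 were higher in TMD8, 12 of them by at least 1, and 6 in OCI-Ly1, 3 of them by at least 1, with a median log2 difference of -0.86. On the uncentred log2(TPM + 1) scale 10 were higher in each line, with a median of -0.03. With centred TPM values 18 were higher in TMD8 and 7 in OCI-Ly1. IKBKB, the catalytic kinase of the classical pathway, did not pass, at 50.98 and 47.5 CPM.

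Genes that NF-kB is known to activate differed more widely. Of 30 listed, 28 were tested, 21 were higher in TMD8, 20 of them by at least 1, and 5 in OCI-Ly1, 3 of them by at least 1. The median log2 difference was -3.27. Of the 25 promoters available 32.0% held the motif, against 5.72% of all promoters and 37.5% of those of the MHC class I list. The cytokine gene TNF was at 0.412 ± 0.22 CPM in OCI-Ly1 and 72.2 ± 5.41 CPM in TMD8. CCR7, a receptor that guides lymphocytes into lymph nodes, was 109-fold higher in TMD8, the survival gene BCL2A1 was 103-fold higher in TMD8 and the adhesion molecule ICAM1 was 63.3-fold higher in TMD8. EBI3, a subunit of cytokines of the IL-12 family, was at 0 CPM in all 3 OCI-Ly1 libraries and 26.3, 28.3 and 27.5 CPM in the 3 TMD8 libraries, and the chemokine CXCL10 was at 0 CPM in all 3 OCI-Ly1 libraries and 25.2, 20.9 and 20.1 CPM in the 3 TMD8 libraries. EBI3 was therefore at least 659-fold higher in TMD8, taking 3 counts over the 3 OCI-Ly1 libraries as the floor. On the OCI-Ly1 side BIRC3, an inhibitor of cell death and a common target of the pathway, was at 219 ± 20.2 CPM in OCI-Ly1 and 102 ± 9.17 CPM in TMD8, and TRAF1 and TNFRSF9 did not pass.

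B-cell receptor genes were expressed in both lines and lay on both sides, as genes in general did. Of 35, 22 were higher in TMD8 and 10 in OCI-Ly1, with 11 and 5 of them by at least 1. The shares over all genes tested were 38.5% and 38.1%, and 21.9% and 16.7% by at least 1. The list's median log2 difference was -0.58. The 2 signalling chains of the receptor went apart: CD79A was at 180.4 ± 7.28 CPM in OCI-Ly1 and 381 ± 17.8 CPM in TMD8, and CD79B at 347 ± 29.8 CPM in OCI-Ly1 and 184 ± 6.1 CPM in TMD8. The kinases differed by gene, with LYN 3.04-fold higher in TMD8, SYK 1.69-fold higher in TMD8 and BLK 4.92-fold higher in OCI-Ly1. BTK, the target of ibrutinib, was at 132 and 163 CPM in OCI-Ly1 and TMD8, a log2 difference of -0.30 ± 0.07. PTPN6 (SHP-1), a phosphatase that damps receptor signals, was at 0.592, 0.706 and 0.487 CPM in the 3 OCI-Ly1 libraries and 371, 340.2 and 359 CPM in the 3 TMD8 libraries, and was 606-fold higher in TMD8. The PI3K catalytic genes split, PIK3CD 7.17-fold higher in TMD8 and PIK3CG 5.47-fold higher in OCI-Ly1. The exchange factor VAV2 was 179-fold higher in TMD8 and the inhibitory receptor LILRB1 was 92.1-fold higher in TMD8. BCL10 and MALT1, which carry the signal on to NF-kB, were 2.23-fold higher in TMD8 and 1.8-fold higher in TMD8.

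Toll-like receptors differed by member. The nucleic acid sensors of the endosome, TLR9 and TLR7, were 21.1-fold higher in TMD8 and 6.18-fold higher in TMD8, and their chaperone UNC93B1 was 5.32-fold higher in TMD8. Of the receptors at the cell surface, TLR1, TLR6 and TLR10 were 3.74-fold higher in OCI-Ly1, 2.14-fold higher in OCI-Ly1 and 2.65-fold higher in OCI-Ly1, TLR4 was 1.69-fold higher in OCI-Ly1 and TLR2 was 1.54-fold higher in TMD8. Their adaptor MYD88 was at 26.6, 27.1 and 24.4 CPM in the 3 OCI-Ly1 libraries and 104, 91.8 and 88.1 CPM in the 3 TMD8 libraries. Every TMD8 library was above every OCI-Ly1 library, and 78.3% of all genes tested had no overlap in one direction or the other. Of the 22 genes of the list 12 were higher in TMD8, 9 of them by at least 1. In OCI-Ly1 9 were higher, 5 of them by at least 1. For comparison, 38.5% and 38.1% of all genes tested were higher in TMD8 and OCI-Ly1, 21.9% and 16.7% by at least 1. The kinases of the pathway were not uniform, since IRAK2 was 13.8-fold higher in OCI-Ly1, IRAK1 1.18-fold higher in OCI-Ly1, and IRAK3, which inhibits the pathway, 14.4-fold higher in TMD8.

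JAK-STAT genes, which carry cytokine signals to the nucleus, were higher in TMD8 in 22 of 28 tested cases, 15 of them by at least 1. In OCI-Ly1 3 were higher, 1 of them by at least 1, and the median log2 difference was -1.15. On the uncentred log2(TPM + 1) scale 12 were higher in TMD8 and 10 in OCI-Ly1, with a median of -0.06. With centred TPM values 21 were higher in TMD8 and 3 in OCI-Ly1. STAT3, the factor downstream of IL-6 and IL-10, was at 40.04, 39.9 and 37.5 CPM in the 3 OCI-Ly1 libraries and 932, 849 and 868 CPM in the 3 TMD8 libraries, and was 22.6-fold higher in TMD8. SOCS3, a target of STAT3 that shuts the receptor off again, was at 0 CPM in all 3 OCI-Ly1 libraries and 208, 249 and 247 CPM in the 3 TMD8 libraries, which makes it at least 5681-fold higher in TMD8. The cytokine genes IL10, 24.5-fold higher in TMD8, and IL6, at 0 CPM in all 3 OCI-Ly1 libraries and 4.67, 5.13 and 3.89 CPM in the 3 TMD8 libraries, lay on the same side. Among the receptor chains IL10RA was 136-fold higher in TMD8, IL21R was 50.9-fold higher in TMD8, and IL2RB was at 0 CPM in all 3 OCI-Ly1 libraries and 156, 149.5 and 153 CPM in the 3 TMD8 libraries. The 3 genes on the OCI-Ly1 side were also receptor chains, IL2RA, 3.15-fold higher in OCI-Ly1, IL6ST, 1.69-fold higher in OCI-Ly1, and IL10RB, 1.28-fold higher in OCI-Ly1. All 4 Janus kinases were higher in TMD8, JAK3 12.7-fold higher in TMD8, JAK2 4.86-fold higher in TMD8, JAK1 2.28-fold higher in TMD8 and TYK2 1.86-fold higher in TMD8, whereas STAT2 did not pass.

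Transcription factors of the B-cell lineage lay on both sides, more of them on that of TMD8. Of 34, 18 were higher in TMD8, 15 of them by at least 1, and 12 in OCI-Ly1, 5 of them by at least 1. All genes tested had shares of 38.5% and 38.1%, and of 21.9% and 16.7% by at least 1. BACH2, a repressor that delays plasma-cell differentiation by acting on PRDM1, was at 181, 179 and 181 CPM in the 3 OCI-Ly1 libraries and 0.52, 0.565 and 0.607 CPM in the 3 TMD8 libraries, and was 315-fold higher in OCI-Ly1. PRDM1 itself had the opposite order, as given above. Higher in TMD8 was BHLHE41, at 0.0554 ± 0.019 CPM in OCI-Ly1 and 133 ± 1.73 CPM in TMD8. So were KLF2, which controls lymphocyte traffic, at 0.104 ± 0.0901 CPM in OCI-Ly1 and 58.2 ± 2.45 CPM in TMD8, and BHLHE40. BHLHE40 was at 0.393 ± 0.186 CPM in OCI-Ly1 and 80.2 ± 3.67 CPM in TMD8. None of these genes had overlapping libraries, and neither did 78.3% of all genes tested. The Ikaros family member IKZF2 was 41.05-fold higher in OCI-Ly1, while IKZF1 was 2.32-fold higher in TMD8 and IKZF3 was at 589.8 and 684 CPM in OCI-Ly1 and TMD8, a log2 difference of -0.21 ± 0.06. PAX5, the B-lineage commitment factor, was 5.47-fold higher in TMD8, POU2F2 (Oct-2) was 35.1-fold higher in TMD8, and its co-activator POU2AF1 did not pass, at 179 and 166 CPM.

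Plasma-cell genes did not move as 1 block. IRF4, PRDM1, XBP1 and SLAMF7 were higher in TMD8, with XBP1, the factor that expands the secretory apparatus, at 6.4 ± 0.646 CPM in OCI-Ly1 and 40.01 ± 2.27 CPM in TMD8. In contrast IGJ, the joining chain of secreted antibodies, was at 523, 522 and 547 CPM in the 3 OCI-Ly1 libraries and 19.7, 18.2 and 16.4 CPM in the 3 TMD8 libraries, and was 29.4-fold higher in OCI-Ly1. MZB1, a chaperone of antibody secretion, was 5.14-fold higher in OCI-Ly1, TNFRSF17 (BCMA) was 5.14-fold higher in OCI-Ly1 and CD38 was 60.8-fold higher in OCI-Ly1. Over the 9 plasma-cell markers the summed level was between 979 and 999.6 CPM in OCI-Ly1 and between 3204 and 3546 CPM in TMD8, most of it IRF4 in TMD8.

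Surface antigens that serve as drug targets in B-cell lymphoma were unequal between the lines. MS4A1 (CD20) was at 427, 459 and 476 CPM in the 3 OCI-Ly1 libraries and 1644, 1398 and 1437 CPM in the 3 TMD8 libraries, and was 3.29-fold higher in TMD8. CD22 was 2.39-fold higher in TMD8 and CD37 was 31.2-fold higher in TMD8. CD52, the target of alemtuzumab, was at 164, 161 and 178 CPM in the 3 OCI-Ly1 libraries and 0.908, 0.846 and 0.909 CPM in the 3 TMD8 libraries, and was 188-fold higher in OCI-Ly1. CD274 (PD-L1) was at 0.38 ± 0.161 CPM in OCI-Ly1 and 86.6 ± 2.74 CPM in TMD8, SEMA7A was 313-fold higher in TMD8, and CD27, a receptor of memory B cells, was 58.5-fold higher in OCI-Ly1. Of 39 antigens tested, 27 were higher in TMD8, 18 of them by at least 1, and 8 in OCI-Ly1, 6 of them by at least 1. All 7 tested members of the Fc receptor-like family differed by at least 1: FCRL5, FCRL4, FCRL2 and FCRL3 were higher in TMD8, FCRL5 at 34.2 ± 3.75 CPM in OCI-Ly1 and 404 ± 15.7 CPM in TMD8, and FCRLA, FCRLB and FCRL1 in OCI-Ly1, FCRLA at 559 ± 11.02 CPM in OCI-Ly1 and 126 ± 6.37 CPM in TMD8.

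MHC class II molecules show peptides from taken-up protein to helper T cells, and their genes are switched on together by the co-activator CIITA, which docks on the RFX complex and NF-Y at a conserved promoter unit. The NF-Y part of that unit is the Y box, CTGATTGG. Searched on both strands, these 8 letters occur in 4.16% of the 27305 promoters and in 5 of the 14 class II list promoters in the table (35.7%). In the other gene lists the share ranged from 0% to 31.8%, the highest being that of the sterol list. Windows from RefSeq on GRCh38.p14 are shown for the 4 class II molecules among the 5, with the box in capitals. Their RNA was higher in TMD8, while that of RFX5, the remaining gene with the box, was higher in OCI-Ly1.
HLA-DRB1, chr6:32589870-32589917, minus strand: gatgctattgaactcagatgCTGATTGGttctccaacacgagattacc
HLA-DRB5, chr6:32530353-32530400, minus strand: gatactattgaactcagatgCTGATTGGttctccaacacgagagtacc
HLA-DQB1, chr6:32666721-32666768, minus strand: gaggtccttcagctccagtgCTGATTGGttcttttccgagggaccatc
HLA-DMA, chr6:32953152-32953199, minus strand: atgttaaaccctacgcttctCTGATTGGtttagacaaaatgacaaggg

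The classical class II genes were at or near 0 counts in OCI-Ly1. HLA-DRA, the alpha chain of HLA-DR, was at 0.222, 0.217 and 0.112 CPM in the 3 OCI-Ly1 libraries and 540.1, 474 and 480.0 CPM in the 3 TMD8 libraries, with 13 counts over the 3 OCI-Ly1 libraries and 26225 over the 3 TMD8 libraries, and was 2748-fold higher in TMD8 (95% counting interval 1607 to 5162). HLA-DPA1, HLA-DPB1, HLA-DRB1, HLA-DRB5 and HLA-DQA1 had 0 counts in all 3 OCI-Ly1 libraries, against 136 ± 7.64 CPM, 63.8 ± 3.003 CPM, 50.5 ± 1.18 CPM, 33.9 ± 6.09 CPM and 14.8 ± 1.57 CPM in TMD8. HLA-DQB1 was low in both, at 0.0793 and 1.49 CPM. HLA genes vary between people, and how much of these differences comes from reads that matched no listed allele was not tested.

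The accessory genes of the pathway were read in both lines. HLA-DMA and HLA-DMB, which load peptides, were at 9.12 ± 0.674 CPM in OCI-Ly1 and 30.9 ± 3.38 CPM in TMD8, and at 5.9 ± 0.543 CPM in OCI-Ly1 and 21.5 ± 2.68 CPM in TMD8. CD74, the invariant chain, was 8.45-fold higher in TMD8. CIITA was at 48.04, 47.7 and 42.4 CPM in the 3 OCI-Ly1 libraries and 121, 124 and 119.5 CPM in the 3 TMD8 libraries, and was 2.64-fold higher in TMD8, so its OCI-Ly1 libraries were lower but well above 0. RFX5, the DNA-binding subunit of the RFX complex, had the opposite order, 2.18-fold higher in OCI-Ly1, and RFXANK was at 50.9 and 36.4 CPM. Of the 17 genes of the list 14 were higher in TMD8, 12 of them by at least 1, and 3 in OCI-Ly1, 1 of them by at least 1, with a median log2 difference of -2.59.

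Class I genes, which show internal peptides to killer T cells, were split. HLA-B was at 10.4 ± 1.25 CPM in OCI-Ly1 and 265 ± 9.3 CPM in TMD8, HLA-E at 4.18 ± 0.366 CPM in OCI-Ly1 and 130.3 ± 6.56 CPM in TMD8, and NLRC5, the class I transactivator, was 29.1-fold higher in TMD8. B2M, the shared light chain, was closer, 2.1-fold higher in TMD8. The immunoproteasome gene PSMB9 and the trimming enzyme ERAP2 were 2.65-fold higher in OCI-Ly1 and 2.23-fold higher in OCI-Ly1. Of 20 genes 10 were higher in TMD8 and 5 in OCI-Ly1, 7 and 2 of them by at least 1. Over all genes tested 38.5% and 38.1% were so, and 21.9% and 16.7% by at least 1. The list's median log2 difference of -0.15 was 0.03 with centred TPM values.

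**Figure D3:**
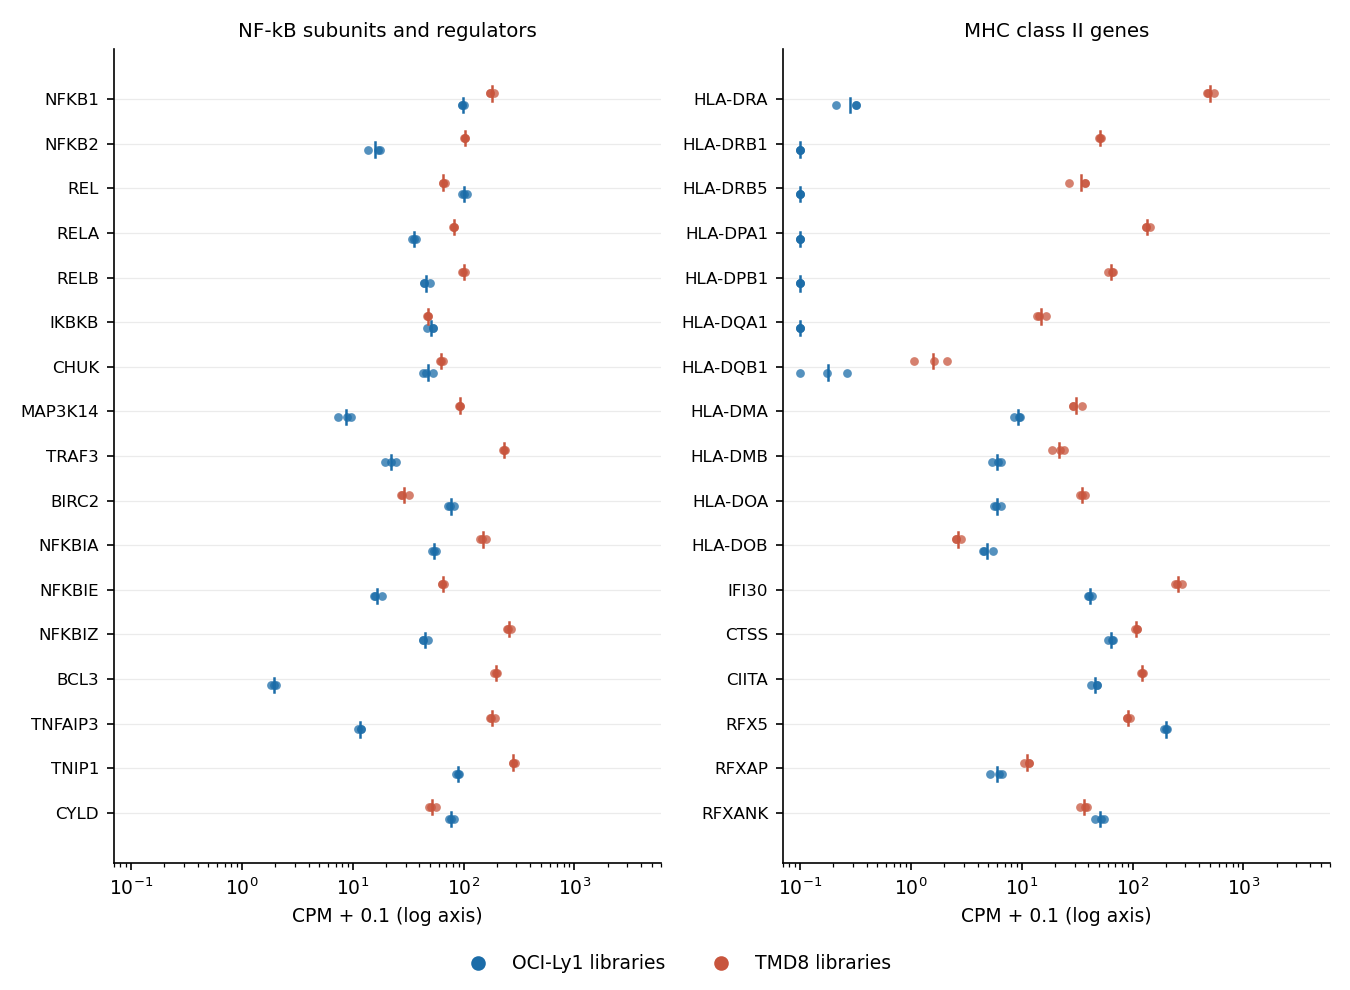
Level of 17 NF-kB subunit and regulator genes (left) and 17 MHC class II genes (right) in each library, in CPM plus 0.1 on a log axis, with a bar at each mean. Blue points (OCI-Ly1) lie at the left edge, 0 CPM, for HLA-DRB1, HLA-DRB5, HLA-DPA1, HLA-DPB1 and HLA-DQA1, while CIITA and RFX5 have points from both lines well above it.

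Some genes of the G1 checkpoint were far apart between the lines. CDKN2A, which encodes p16 and p14ARF, the brakes on CDK4 and on MDM2, was at 82.97, 73.7 and 77.7 CPM in the 3 OCI-Ly1 libraries and 0 CPM in all 3 TMD8 libraries, and was at least 1388-fold higher in OCI-Ly1. Its neighbour on chromosome 9, CDKN2B (p15), was at 4.11, 5.06 and 4.65 CPM in the 3 OCI-Ly1 libraries and 0 CPM in all 3 TMD8 libraries. MTAP, another gene of the same stretch, was at 106, 103 and 110.1 CPM in the 3 OCI-Ly1 libraries and 3.23, 3.99 and 3.45 CPM in the 3 TMD8 libraries, so it was low but not at 0 in TMD8. RB1, the protein that p16 acts through, was 21.97-fold higher in TMD8, CDKN1A (p21) was 4.94-fold higher in TMD8 and CCNE2 was 9.94-fold higher in OCI-Ly1. MDM2, a ubiquitin ligase, was 1.75-fold higher in OCI-Ly1. Of the 28 genes of this list 12 were higher in OCI-Ly1, 9 of them by at least 1, and 10 in TMD8, 3 of them by at least 1. Over all genes tested 38.1% were higher in OCI-Ly1 and 38.5% in TMD8, and 16.7% and 21.9% were so by at least 1.

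Genes of the BCL2 family other than BCL2 itself lay on both sides. Of 14 tested, 9 were higher in TMD8, 5 of them by at least 1, and 4 in OCI-Ly1, 2 of them by at least 1. Over all genes tested 38.5% were higher in TMD8 and 38.1% in OCI-Ly1, and 21.9% and 16.7% were so by at least 1. On the uncentred log2(TPM + 1) scale 8 of the family were higher in OCI-Ly1 and 5 in TMD8. MCL1 was 1.66-fold higher in TMD8, while BCL2L1 (BCL-XL) did not pass, at 54.1 and 53.9 CPM. Of the death-promoting members BCL2L11 (BIM) was at 126 ± 2.12 CPM in OCI-Ly1 and 615 ± 29.5 CPM in TMD8 and BBC3 (PUMA) was 4.32-fold higher in TMD8, whereas BIK was 16.1-fold higher in OCI-Ly1 and HRK was 6.22-fold higher in OCI-Ly1.

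JIB-04 acts on demethylases of the JmjC family, and 22 of 23 genes listed for that family had enough counts to test. Of 22 tested JmjC genes 14 were higher in TMD8, 6 of them by at least 1, and 5 in OCI-Ly1, none by at least 1. Shares over all genes tested were 38.5% and 38.1%, and 21.9% and 16.7% by at least 1. The median log2 difference of the JmjC genes was -0.32. The KDM4 enzymes remove methyl groups from lysine 9 of histone H3. KDM4A was at 76.9, 77.6 and 72.5 CPM in the 3 OCI-Ly1 libraries and 66.4, 62.7 and 66.2 CPM in the 3 TMD8 libraries, a log2 difference of 0.22 ± 0.06 (adjusted p = 0.005). KDM4B was at 31.9, 32.4 and 31.5 CPM in the 3 OCI-Ly1 libraries and 75.3, 77.7 and 76.8 CPM in the 3 TMD8 libraries, and was 2.4-fold higher in TMD8. KDM4C, at 72.97 ± 1.5 CPM in OCI-Ly1 and 76.6 ± 6.61 CPM in TMD8, did not pass (adjusted p = 0.39). Outside that subfamily KDM5B, which acts on lysine 4, was low in OCI-Ly1, at 1.21 ± 0.399 CPM, and at 58.2 ± 3.33 CPM in TMD8. It was 46.5-fold higher in TMD8, and KDM6B, which acts on lysine 27, was 7.41-fold higher in TMD8.

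Other chromatin genes differed gene by gene. Over all genes tested 16.7% were at least 1 higher in OCI-Ly1 and 21.9% in TMD8, and the H3K9 list lay below both shares. Among 28 genes of H3K9 methylation and heterochromatin 12 were higher in each line, 2 by at least 1 in OCI-Ly1 and 4 in TMD8, although on the uncentred log2(TPM + 1) scale 23 were higher in OCI-Ly1 and 3 in TMD8. TRIM28 (KAP1), the co-repressor that zinc-finger proteins recruit, was at 463, 429.7 and 394 CPM in the 3 OCI-Ly1 libraries and 2556, 2366 and 2372 CPM in the 3 TMD8 libraries, and was 5.67-fold higher in TMD8. The H3K9 methyltransferase genes were closer, SETDB1 1.34-fold higher in OCI-Ly1, EHMT2 (G9a) 1.54-fold higher in TMD8 and SUV39H2 at 56.002 and 61.2 CPM, which did not pass, while the reader CBX3 (HP1 gamma) was 2.86-fold higher in OCI-Ly1. The DNA methyltransferases split, DNMT3A 6.14-fold higher in TMD8 and DNMT3B 3.25-fold higher in OCI-Ly1.

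Of 31 Polycomb genes and genes mutated in lymphoma 15 were higher in TMD8, 10 of them by at least 1. In OCI-Ly1 13 were higher, 6 of them by at least 1. Among all genes tested 38.5% and 38.1% were higher in TMD8 and OCI-Ly1, 21.9% and 16.7% by at least 1. EZH2, the H3K27 methyltransferase of germinal-centre cells, was at 218 ± 8.42 CPM in OCI-Ly1 and 112 ± 8.71 CPM in TMD8. The acetyltransferases CREBBP and EP300 were 6.36-fold higher in TMD8 and 4.17-fold higher in TMD8, the co-repressor BCORL1 was 62.4-fold higher in TMD8, and the deacetylases HDAC1 and HDAC9 were 7.46-fold higher in OCI-Ly1 and 11.9-fold higher in OCI-Ly1.

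Interferon-stimulated genes were modestly higher in TMD8: 24 of 34, with 13 of them by at least 1, against 4 in OCI-Ly1, 3 of them by at least 1. The median log2 difference was -0.70. MX1, an antiviral GTPase, was at 23.6 ± 0.609 CPM in OCI-Ly1 and 68.6 ± 6.44 CPM in TMD8, and HERC6 was 11.5-fold higher in TMD8. ISG15, the ubiquitin-like modifier of this response, was 2.08-fold higher in OCI-Ly1, and USP18, which removes it from proteins, was at 0.105 ± 0.0702 CPM in OCI-Ly1 and 6.4 ± 0.869 CPM in TMD8. IFI44 was at 5.19 ± 0.523 CPM in OCI-Ly1 and 0.27 ± 0.111 CPM in TMD8.

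After the germinal-centre list, the list of the 25 with the highest median toward OCI-Ly1 was that of amino-acid genes. Of 29 genes of the amino-acid response and serine synthesis 19 were higher in OCI-Ly1, 13 of them by at least 1, and 7 in TMD8, 5 of them by at least 1, with a median of 0.93. ATF4, the factor that drives the response, was at 480.1 ± 10.2 CPM in OCI-Ly1 and 139 ± 3.85 CPM in TMD8, and its target ASNS, asparagine synthetase, at 190.3, 191 and 185 CPM in the 3 OCI-Ly1 libraries and 26.7, 25.8 and 25.1 CPM in the 3 TMD8 libraries. PHGDH, the first enzyme of serine synthesis, was 5.01-fold higher in OCI-Ly1. CBS, which moves sulphur from homocysteine toward cysteine, was at 164, 160.5 and 152 CPM in the 3 OCI-Ly1 libraries and 0.519, 0.677 and 0.606 CPM in the 3 TMD8 libraries, and was 260.1-fold higher in OCI-Ly1. ATF3 and ATF5 were on the other side, ATF3 at 0.352 ± 0.181 CPM in OCI-Ly1 and 46.7 ± 0.976 CPM in TMD8, and ATF5 8.55-fold higher in TMD8.

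Sterol genes were higher in TMD8 in 21 of 29 cases, 9 of them by at least 1. In OCI-Ly1 7 were higher, 3 of them by at least 1. The all-gene shares were 38.5% and 38.1%, and 21.9% and 16.7% by at least 1. The fatty-acid enzymes FASN and SCD were 7.89-fold higher in TMD8 and 5.76-fold higher in TMD8. The cholesterol exporters ABCA1 and ABCG1 were 14.9-fold higher in OCI-Ly1 and 12.9-fold higher in OCI-Ly1, both opposite to most of the synthesis genes.

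Genes of glycolysis, mitosis and ribosomes had median log2 differences between -0.01 and 0.33. Their counts stand against 38.1% of all genes tested higher in OCI-Ly1 and 38.5% in TMD8, 16.7% and 21.9% by at least 1. Of 31 hypoxia and glycolysis genes, 16 were higher in OCI-Ly1 and 13 in TMD8, 3 and 7 of them by at least 1, with VEGFA 6.39-fold higher in TMD8 and ENO2 11.7-fold higher in TMD8. Mitotic genes were higher in OCI-Ly1 in 22 of 30 cases but only 4 of them by at least 1, with a median of 0.33; NUF2 was 2.65-fold higher in OCI-Ly1 and MKI67, the proliferation marker, was 2.29-fold higher in TMD8. Among 29 genes of ribosome biogenesis and the MYC network 12 were higher in each line, 2 of them by at least 1 in each (24 and 2 higher on the uncentred log2(TPM + 1) scale), and MYC was at 293 ± 14.96 CPM in OCI-Ly1 and 352 ± 20.1 CPM in TMD8, a log2 difference of -0.26 ± 0.07.

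**Figure D4:**
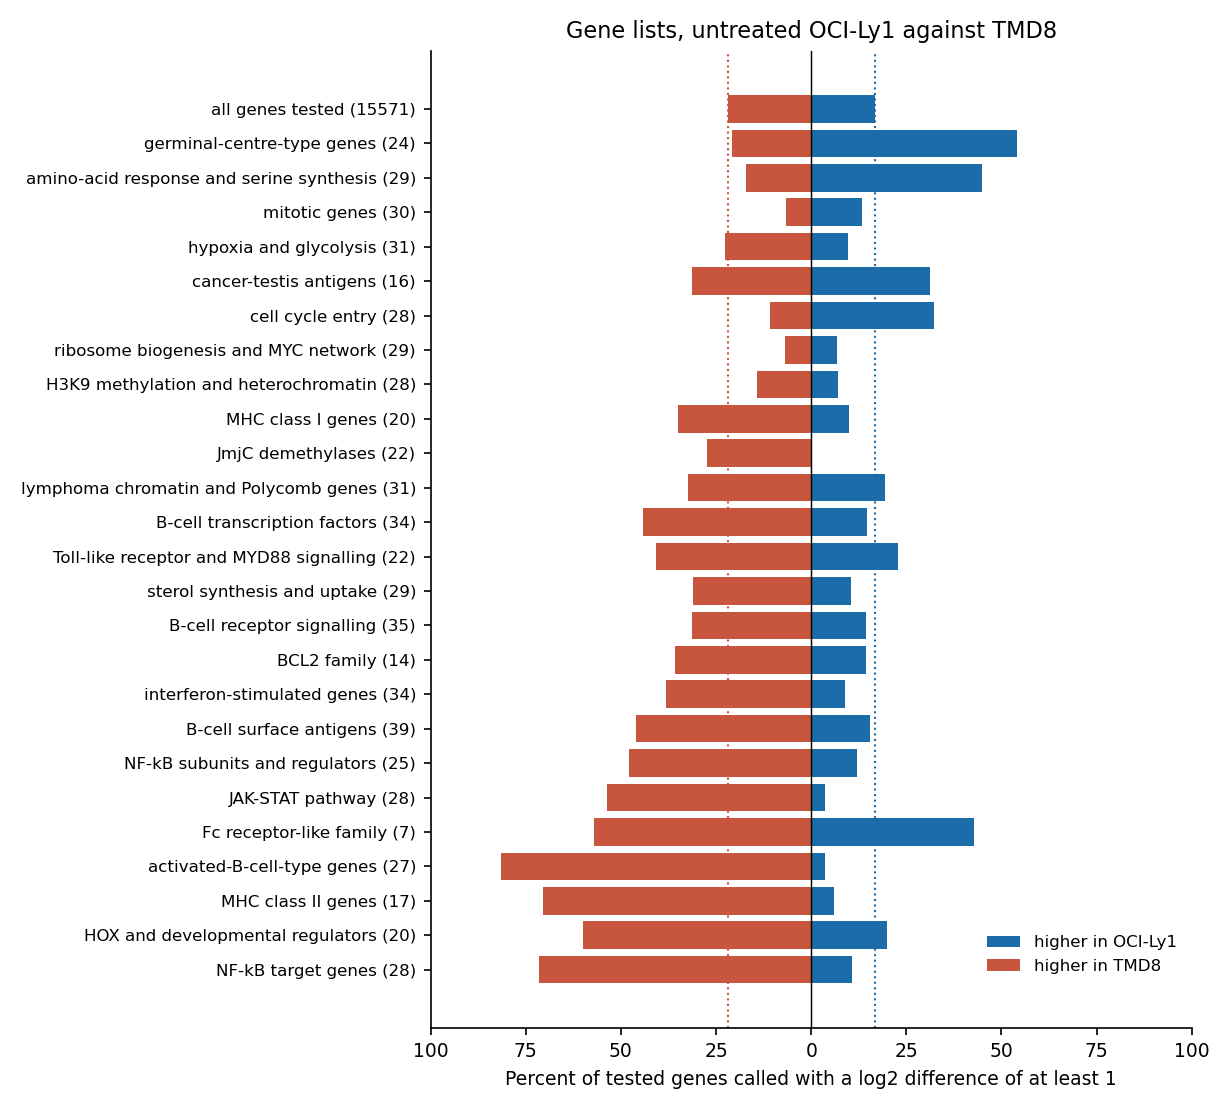
Percent of the tested genes of each list that were called with a log2 difference of at least 1, higher in OCI-Ly1 to the right (blue) and higher in TMD8 to the left (red), with the number of tested genes in brackets. Dotted lines mark the shares over all genes tested, 16.7% and 21.9%; activated-B-cell, NF-kB target and MHC class II genes reach past 70% on the TMD8 side and germinal-centre genes past 50% on the OCI-Ly1 side.

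A number of genes were not graded but on in 1 line and off in the other. Taking genes with no more than 3 counts in any library of one line that averaged 5 CPM or more in the other, 129 genes (0.545% of the 23686) were on in OCI-Ly1 only and 164 (0.692%) in TMD8 only. No test is attached to these counts, and they move with the limits chosen: with at most 10 counts they were 196 and 251, and with 1 CPM in place of 5 they were 238 and 350. By TPM they were 187 and 104. Of the 129, 81 had 0 counts in all 3 TMD8 libraries, and of the 164, 88 had 0 counts in all 3 OCI-Ly1 libraries. Ranked by CPM, which is not corrected for gene length, the first in OCI-Ly1 was UCHL1, a deubiquitinase of neurons and germinal-centre B cells, at 763, 804 and 733 CPM in the 3 OCI-Ly1 libraries and 0 CPM in all 3 TMD8 libraries, at least 13458-fold higher in OCI-Ly1. Next came IL7R, the receptor for the lymphocyte growth factor IL-7, at 335, 340.4 and 339 CPM in the 3 OCI-Ly1 libraries and 0 CPM in all 3 TMD8 libraries. RGCC was at 108 ± 1.87 CPM, ZNF518B at 78.004 ± 4.58 CPM, TNFSF8 (CD30 ligand) at 77.1 ± 4.44 CPM, FIBIN at 74.5 ± 2.996 CPM, SMAD1, which carries BMP signals, at 62.1 ± 4.17 CPM, and OAT, an enzyme of ornithine metabolism, at 61.7 ± 3.52 CPM in OCI-Ly1, each with at most 3 counts in any TMD8 library. CDKN2A was also among the first 10 by level.

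In TMD8 the first was EPHA4, an ephrin receptor, at 0 CPM in all 3 OCI-Ly1 libraries and 367, 327 and 324 CPM in the 3 TMD8 libraries, at least 8123-fold higher in TMD8. SIGLEC6 was at 239 ± 11.4 CPM, MARCKS, a membrane protein bound to actin, at 239 ± 7.9 CPM, GZMB, the protease granzyme B, at 230.3 ± 2.45 CPM, KIAA1217 at 205 ± 16.7 CPM and TSPAN7 at 193 ± 34.8 CPM in TMD8, each with at most 3 counts in any OCI-Ly1 library. SOCS3 is the sixth by level. CT45A3 and CT45A1 were at 249 ± 20.9 CPM and 217 ± 23.1 CPM, but these cancer-testis genes have near-identical copies, so reads may have been divided among them. The X-linked family MAGEA lay on both sides, with MAGEA12, MAGEA6 and MAGEA3 at 0 counts in TMD8 and 9.93 ± 1.03 CPM, 7.08 ± 1.3 CPM and 6.39 ± 0.473 CPM in OCI-Ly1, and MAGEA9B, on in TMD8 only, at 44.2 ± 25.8 CPM in TMD8, with the same limit on copies.

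Zinc-finger genes were unevenly placed among the switched genes. Symbols beginning with ZNF or ZSCAN made up 30 of the 129 genes on in OCI-Ly1 only (23.3%) and 2 of the 164 on in TMD8 only (1.22%), against 495 of the 15571 genes tested (3.18%). Over all tested zinc-finger genes, 31.5% were at least 1 higher in OCI-Ly1 and 20.2% in TMD8. Chromosome 19, which carries many of them, held 24 of the 129 (18.6%) and 7 of the 164 (4.27%), against 7.06% of the genes tested. All of the 24 except MIER2 and GNA11 are zinc-finger genes already counted. Of all tested genes of that chromosome, 15.7% were at least 1 higher in OCI-Ly1 and 36.7% in TMD8. Promoters with a ratio of observed to expected CpG dinucleotides above 0.6 were less common among the switched genes. They made up 63.7% of 102 promoters for genes on in OCI-Ly1 only and 55.1% of 118 for TMD8 only. Of 11578 promoters of tested genes 77.5% had such a ratio.

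Of the genes with more than 3 counts in every library, the widest differences toward TMD8 beside CD44 were those of VIM, IQSEC1, MPEG1, HIST1H2BH, PTPN6, KBTBD11, MIR155HG, DST and MAGEA9. VIM, the intermediate filament vimentin, was at 0.37, 0.706 and 0.187 CPM in the 3 OCI-Ly1 libraries and 471, 413 and 416 CPM in the 3 TMD8 libraries, and was 1096-fold higher in TMD8. MPEG1, a pore-forming protein of phagocytes and B cells, was at 1.02 ± 0.0759 CPM in OCI-Ly1 and 770.3 ± 42.1 CPM in TMD8, and MIR155HG, the host transcript of the B-cell microRNA miR-155, was at 0.185, 0.38 and 0.3 CPM in the 3 OCI-Ly1 libraries and 158, 141 and 137 CPM in the 3 TMD8 libraries, 513-fold higher in TMD8. HIST1H2BH and MAGEA9 have near-identical copies. Toward OCI-Ly1, beside BACH2, CBS and CD52, the widest were RBFOX2, C3orf37, CHI3L2, NSG1, DEPTOR, BMP7 and SLC25A27. RBFOX2, a splicing factor, was at 197, 191 and 202 CPM in the 3 OCI-Ly1 libraries and 0.584, 0.282 and 0.202 CPM in the 3 TMD8 libraries, and was 568-fold higher in OCI-Ly1. DEPTOR, an inhibitor of mTOR, was at 81.7 ± 4.53 CPM in OCI-Ly1 and 0.529 ± 0.128 CPM in TMD8, and BMP7, a secreted growth factor, at 196 ± 5.44 CPM in OCI-Ly1 and 1.34 ± 0.356 CPM in TMD8. The first-named gene on each side, CD44 and RBFOX2, had log2 differences of -11.31 ± 0.13 and 9.15 ± 0.14.

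The line differences were mostly still present in the 12 treated libraries, which share no library with the DMSO comparison. With 150 nM JIB-04 39.7% of 16476 tested genes were higher in OCI-Ly1 and 41.0% in TMD8, and with 500 nM 40.7% and 42.7%. Of the 2605 genes at least 1 higher in OCI-Ly1 with DMSO, 2493 (95.7%) were called higher in that line again at 150 nM, and 2414 (92.7%) at 500 nM, with no condition on size. Of the 3406 on the TMD8 side, 3355 (98.5%) and 3273 (96.1%) were again called higher in TMD8. With a difference of at least 1 required again, the numbers on the OCI-Ly1 side were 2264 and 2109 of the 2605, and on the TMD8 side 3093 and 2832 of the 3406. Genes called in the opposite direction numbered 8 at 150 nM and 46 at 500 nM.

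Among the lineage genes, BCL6 was at 222 ± 11.97 CPM in OCI-Ly1 and 49.1 ± 1.87 CPM in TMD8 with 150 nM and at 229 ± 1.7 CPM in OCI-Ly1 and 61.7 ± 1.74 CPM in TMD8 with 500 nM. IRF4 was at 237 ± 8.91 CPM in OCI-Ly1 and 2318 ± 168 CPM in TMD8 with 150 nM and at 434 ± 16.3 CPM in OCI-Ly1 and 1788 ± 9.48 CPM in TMD8 with 500 nM, so its log2 difference was -3.69 ± 0.08 with DMSO, -3.29 ± 0.06 and -2.04 ± 0.05. PRDM1 was at 1.51 ± 0.292 CPM in OCI-Ly1 and 445 ± 6.15 CPM in TMD8 with 500 nM, and its log2 difference was -8.18 ± 0.08. NFKBIA was among the genes that turned: with 500 nM it was at 135 ± 3.84 CPM in OCI-Ly1 and 109 ± 3.38 CPM in TMD8, a log2 difference of 0.30 ± 0.06 against -1.46 ± 0.07 with DMSO. The mitotic kinase gene PLK1 turned as well. With DMSO it was at 95.2 ± 6.14 CPM in OCI-Ly1 and 195 ± 16.1 CPM in TMD8. With 500 nM it was at 36.5 ± 1.85 CPM in OCI-Ly1 and 25.9 ± 1.07 CPM in TMD8. CPM with DMSO and with JIB-04 were scaled in separate fits, so only the lines are compared here, not the treatments. CHAC1, a stress-induced enzyme that breaks down glutathione, was opposite at 150 nM, 14.4 ± 0.657 CPM in OCI-Ly1 and 17.97 ± 2.34 CPM in TMD8, and at 104 ± 6.97 CPM in OCI-Ly1 and 29.6 ± 1.22 CPM in TMD8 with 500 nM it had its DMSO direction again.

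**Figure D5:**
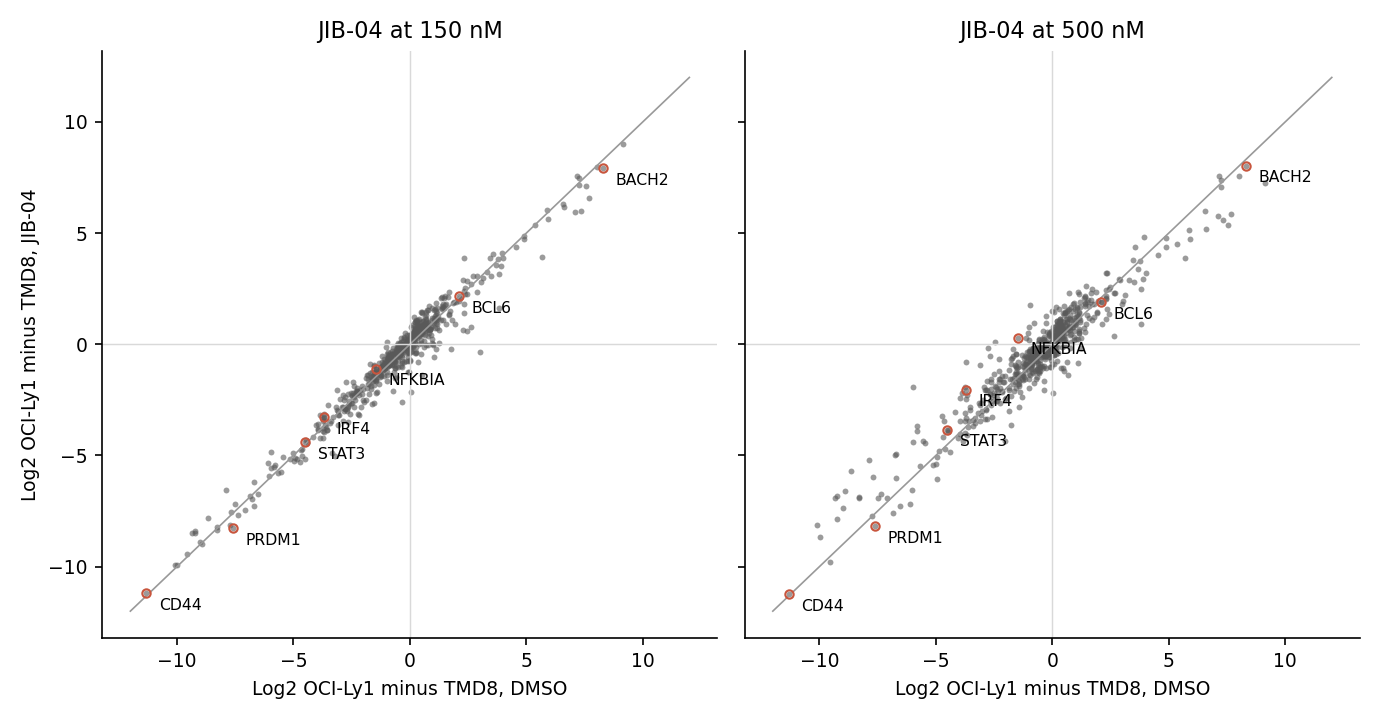
Log2 difference between lines (OCI-Ly1 minus TMD8) with DMSO on the x axis and with 150 nM (left) or 500 nM JIB-04 (right) on the y axis, for the 609 list and named genes with more than 3 counts in every DMSO library. The grey diagonal marks equal differences; most points lie near it, BCL6, CD44, PRDM1 and STAT3 among them, and at 500 nM NFKBIA lies above 0.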

How the data were processed

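RNA had been extracted with RNeasy Plus Micro, depleted of ribosomal RNA and sequenced in paired-end reads, per the labels' protocols. The submitters' processing notes name kallisto 0.46.0, R 4.3.1, DESeq2 1.40.2 and hg19; index, annotation and strand setting are not given in the sources used here. The authors deposited estimated counts and TPM per gene symbol. Counts were rounded to whole numbers, TMM-normalised, filtered with filterByExpr and tested with edgeR 4.0.16 (quasi-likelihood, 6 libraries, no covariate), with Benjamini-Hochberg adjustment over 15571 genes. The treated line differences and the treated CPM came from 1 fit of the 12 treated libraries, scaled apart from the DMSO libraries. The deposited TPM values served only as alternatives, tested with limma 3.58.1; DESeq2 1.42.0 was another. Promoter sequences, gene names and chromosomes came from RefSeq GRCh38.p14 tables, which matched 22678 symbols (95.7%); 707 of 710 listed symbols were found. No coordinates of the files' own build are given.

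Intervals of ratios are exact for counts summed over the 3 libraries of each line and cover counting error only. They leave out the spread between libraries, so they are too narrow where that spread exceeds sampling noise. The libraries carry no molecular identifiers. A gene with 0 counts in a line was set to a floor of 3 counts over its 3 libraries. Genes were named by rule: the 10 widest differences each way (more than 3 counts in all 6 libraries, at least 5 CPM in the higher line), the 10 highest switched genes per line, up to 4 called genes of each of 25 lists, and fixed lineage, NF-kB and KDM4 genes. Further genes were named after their values were seen, to fill out a pathway. Some genes that the rule names or that were named later are not reported here. Members and lists were chosen with earlier results of these data known. The fit was tested on simulated counts with 14785 genes: 100% of changes of 1 on the log2 scale and 85% of those of 0.5 were recovered, with 7 of 14585 unchanged genes called. All 6 simulated libraries followed the OCI-Ly1 profile with 1 fixed spread, and 100 genes were changed at each size, equally in both directions. The simulation therefore does not show how scaling and calls behave where 76.7% of genes differ, as here. Within lines the libraries correlated at 0.994 to 0.997, and no pair agreed within sampling noise.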

Additional observations from a re-analysis of the deposited data

How the results depend on the processing

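Most changes of direction came with uncentred TPM values. With library size only, the medians of the H3K9 and ribosome lists also turned, to 0.10 and 0.14. In TMD8 the 10 highest genes held 54.35% to 62.06% of all TPM, against 17.51% to 17.84% in OCI-Ly1, and the median log2 difference of all genes was 0.687 with log2(TPM + 1), 0.913 with log2(TPM + 0.1) and 0.435 with every gene above 0, against -0.013 in CPM and 0.135 with library size only. With these 3 TPM scales 10814, 10811 and 11256 genes were higher in OCI-Ly1 and 2702, 2701 and 2949 in TMD8; with a log2 difference of at least 1 they were 5797, 7208 and 5921, and 1238, 1832 and 1267. With centred values they were 5966 and 6831. The share of calls on the OCI-Ly1 side was 49.7%, 56.3% with library size only and 80.0% with log2(TPM + 1). In the order of the 3 TPM scales FOXP1 reversed to 0.32, 0.33 and 0.32, NFKB1 to 0.11 in each, MYC to 0.70, 0.71 and 0.70, and KDM4C to 0.94, 0.99 and 0.94. Centred, KDM4C reversed to 0.17 and MAML3 to -0.59. The cause of the reversals was not tested. Of 2640 values of named genes under the alternatives, 2613 kept direction and call, 13 were lost and 14 reversed. These values belong to 165 genes. Other genes given above only as list members, such as BTK, SYK and MCL1, were not in that check.

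Genes on in OCI-Ly1 only numbered 196 with a floor of 10 counts, 238 with 1 CPM and 187 by TPM, against 129; those on in TMD8 only numbered 251, 350 and, by TPM, 104, against 164. Replicate numbers are shared between the lines but did not pair the libraries, with correlations of -0.106, 0.022 and -0.091 for equal numbers; with the replicate block 5764 genes were higher in OCI-Ly1 and 5843 in TMD8. Leaving out each library gave 5653 to 6052 and 5798 to 6167 genes. TMD8 replicate 1 stood apart from the other two on the second principal component (1.17% of variance), and without it 6052 and 6114 genes were called. Depth limits the switched genes, since a floor of 3 counts is 0.0416 CPM in OCI-Ly1 and 0.0567 CPM in TMD8.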

Other observations

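Several switched genes were neighbours. In order along the chromosomes, among genes with at least 1 CPM in either line, runs of 3 or more genes that were at most 3 counts in every library of one line numbered 4 on the OCI-Ly1 side and 4 on the TMD8 side. On chromosome 15 a run of 9 SNORD116 genes, small nucleolar RNAs of the imprinted Prader-Willi region, was on in OCI-Ly1 only. SNRPN and SNURF, which lie in the same region and share a transcript, were at 30.3, 30.5 and 28.2 CPM in the 3 OCI-Ly1 libraries and 0, 0.0282 and 0 CPM in the 3 TMD8 libraries and at 35.2, 33.97 and 35.01 CPM in the 3 OCI-Ly1 libraries and 0, 0.0282 and 0 CPM in the 3 TMD8 libraries. On the X chromosome MAGEA3, CSAG1, MAGEA12, MAGEA2 and MAGEA6 formed a run on in OCI-Ly1 only, on near-identical copies. On the TMD8 side MARK1, MARC2, MARC1 and HLX formed a run on chromosome 1.

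Developmental regulators were low or unequal. Of 41 HOX and other developmental genes 20 passed the filter on low counts, of which 12 were at least 1 higher in TMD8 and 4 in OCI-Ly1. HOXA10, a homeobox gene of blood progenitors, was 13.4-fold higher in TMD8. SOX5 was at 0.436 ± 0.197 CPM in OCI-Ly1 and 31.99 ± 1.36 CPM in TMD8. SOX2, a stem-cell factor, was at 19.4, 19.4 and 23.6 CPM in the 3 OCI-Ly1 libraries and 0.973, 0.733 and 0.96 CPM in the 3 TMD8 libraries, and MEIS1, a partner of HOX proteins, was 15.4-fold higher in OCI-Ly1.

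Whole chromosomes shifted as well. The median log2 difference was 0.47 over 709 genes of chromosome 7, 0.33 over 824 of chromosome 6 and 0.27 over 489 of chromosome 8, and -0.45 over 1099 of chromosome 19 and -0.35 over 213 of chromosome 18, against -0.01 over all genes. Copy number was not measured here.

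MIR3648 and MIR3687, loci whose sequence lies in the ribosomal RNA repeat, were at 32.6 ± 4.43 CPM in OCI-Ly1 and 10172 ± 1964 CPM in TMD8 and at 17.9 ± 1.92 CPM in OCI-Ly1 and 3704 ± 221 CPM in TMD8. Together they made up 28.9% to 32.1% of all TPM in the TMD8 libraries and 0.161% to 0.248% in the OCI-Ly1 libraries, but 1.05% to 1.48% and 0.00468% to 0.00573% of the estimated counts. Whether ribosomal RNA was depleted equally in the lines was not tested.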
